A study of Mus musculus with 9 samples.

Results

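Among the genes measured in sorted mouse oligodendroglial cells were 61 whose symbols carry the name stems of G protein-coupled receptors or of regulators of G protein signalling (RGS), out of 11315 genes in all. The members were taken by symbol, from the numbered Gpr genes, the Gprc and Adgr genes, the numbered Rgs genes, and the receptor families for lysophospholipids, purines, amines, glutamate, endothelin and prostaglandin. The microglial gene P2ry12 was kept out as a marker. They comprised 14 adhesion receptors, 5 lysophospholipid receptors, 3 purinergic receptors with Gpr17 counted among them, 2 aminergic receptors, 2 metabotropic glutamate receptors, 5 endothelin, prostaglandin and endothelin-receptor-like genes, 12 other Gpr genes and 8 RGS genes. A further 10 genes share the name stem but are not established as cell surface receptors or RGS proteins, such as Gpr107, Gpr155, the receptor kinase gene Adrbk1 and Rgs7bp. Of the 61 members, 41 had a mean log2 value of at least 8 and 20 lay below it. No serotonin, muscarinic, dopamine or somatostatin receptor gene was among the 61.

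The libraries came from brain cells of C57BL/6 mice at postnatal day 60, sorted by fluorescence on 1 of 3 reporters, with 3 RNA-seq libraries per group. NDRG1-eGFP cells are called myelinating oligodendrocytes in the labels, PLP-GFP cells are called pre-myelinating oligodendrocytes, and PDGFRa-GFP cells are called oligodendrocyte progenitors. The comparisons ask how the receptor repertoire of the NDRG1-expressing cells differs from that of cells sorted on the other reporters. The labels do not give the regulatory sequences behind the reporters or the number of animals in a library. They do not say either whether each replicate is another animal, and a p-value here is therefore set against library-to-library spread that may be technical.

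G protein-coupled receptors are membrane proteins that, on binding a ligand, exchange the nucleotide on a heterotrimeric G protein. The alpha subunit and the beta-gamma pair then act on adenylyl cyclases, phospholipase C and ion channels. RGS proteins speed up nucleotide hydrolysis by alpha subunits and so shorten the signal, while receptor kinases and arrestins silence the receptor itself. In the oligodendrocyte lineage, work in mice has tied Gpr17 and Gpr37 to the timing of differentiation, Adgrg1 to progenitor proliferation, and S1pr5 and Lpar1 to responses to lysophospholipids released around myelin.

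The promoters of 4 members are shown. Their transcripts were called higher in 1 group against each other group under both fits used here. Adgra1, Gpr176 and Lpar6 were called higher in NDRG1-eGFP cells against each other group, and Gpr75 was called higher in PLP-GFP cells against each other group, with and without removal of a trend on transcript length (values below). Each stretch runs 5′ to 3′ on the gene's own strand around the RefSeq start site, on build GRCm38.p6. Capitals mark matches, on either strand, to the core TGACG of the cyclic AMP response element, the GC box GGGCGG or the Sox core ACAAAG, so a match on the other strand appears as its reverse complement.
Adgra1 (chr7:139833924-139834223, plus strand): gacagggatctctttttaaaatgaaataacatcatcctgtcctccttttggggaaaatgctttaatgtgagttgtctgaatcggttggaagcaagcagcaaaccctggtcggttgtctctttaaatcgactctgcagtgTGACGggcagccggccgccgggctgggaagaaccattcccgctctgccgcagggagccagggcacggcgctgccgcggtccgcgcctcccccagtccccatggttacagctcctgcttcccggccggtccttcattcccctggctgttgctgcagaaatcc
Gpr176 (chr2:118373370-118373669, minus strand): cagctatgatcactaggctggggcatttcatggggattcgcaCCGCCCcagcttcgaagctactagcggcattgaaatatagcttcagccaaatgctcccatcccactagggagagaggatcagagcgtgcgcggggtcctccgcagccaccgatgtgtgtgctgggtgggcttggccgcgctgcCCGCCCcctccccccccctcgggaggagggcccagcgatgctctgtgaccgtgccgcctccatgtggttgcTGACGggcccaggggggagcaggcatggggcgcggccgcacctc
Lpar6 (chr14:73237641-73237940, plus strand): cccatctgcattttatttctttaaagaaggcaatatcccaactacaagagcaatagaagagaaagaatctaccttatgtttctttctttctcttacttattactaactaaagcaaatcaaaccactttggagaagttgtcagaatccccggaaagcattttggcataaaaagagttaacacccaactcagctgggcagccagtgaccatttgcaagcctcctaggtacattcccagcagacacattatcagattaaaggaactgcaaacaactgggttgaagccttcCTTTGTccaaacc
Gpr75 (chr11:30885108-30885407, plus strand): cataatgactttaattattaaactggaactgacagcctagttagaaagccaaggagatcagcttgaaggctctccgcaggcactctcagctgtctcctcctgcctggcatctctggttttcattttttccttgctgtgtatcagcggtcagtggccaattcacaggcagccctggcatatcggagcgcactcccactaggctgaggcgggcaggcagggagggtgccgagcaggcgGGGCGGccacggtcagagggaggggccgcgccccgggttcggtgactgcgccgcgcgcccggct
The Adgra1 stretch held 1 TGACG, at -111 from the start site, the Gpr176 stretch held 1 TGACG at 7 and 2 GC boxes at -208 and -65, the Lpar6 stretch held 1 Sox core at 38, and the Gpr75 stretch held 1 GC box at -14. Of 32851 RefSeq promoters of this length, 20.8% held TGACG, 35.7% GGGCGG and 18.7% ACAAAG. Of 68 promoters that belong to 49 of the members, the shares were 32.4%, 55.9% and 17.6%. A match of letters is a description and not a binding site. Gpr61 was likewise called higher in NDRG1-eGFP cells against each other group under both fits. Called lower against each other group under both fits were Adgrb1 and Adrbk1 in NDRG1-eGFP cells, and Gpr4 and Lpar6 in PLP-GFP cells. Gpr61, Adgrb1 and Adrbk1 had no promoter entry under these symbols, and Gpr4 is named only.

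The deposited values are on a log2 scale and nearly identical in distribution between libraries, with a median of 10.57 in each and a range of 0.29 to 21.87, so they rank genes within a library, and sequencing depth is unknown. The labels were checked against marker genes set out in lists. The 10 mature oligodendrocyte markers summed to 111756 to 114364 ppm of the total of linear values in NDRG1-eGFP libraries, to 101833 to 104431 ppm with PLP-GFP and to 92756 to 108096 ppm with PDGFRa-GFP, so cells labelled as progenitors carried myelin transcripts at nearly the level of the others. Pdgfra itself averaged log2 values of 5.70 in NDRG1-eGFP, 2.71 in PLP-GFP and 6.63 in PDGFRa-GFP cells, in the low part of the range. The 8 measured fibroblast-like and meningeal markers summed to 43.8 to 161 ppm in NDRG1-eGFP, 2.45 to 7.45 ppm in PLP-GFP and 106 to 198 ppm in PDGFRa-GFP libraries, and the 11 microglial markers to 114 to 173 ppm in NDRG1-eGFP, 54.1 to 78.1 ppm in PLP-GFP and 69.3 to 111 ppm in PDGFRa-GFP libraries. The 16 immediate early genes, which dissociation can induce, summed to 3294, 545 and 4356 ppm in NDRG1-eGFP replicates 1 to 3, to 252 to 273 in PLP-GFP replicates, and to 3944, 3956 and 288 in PDGFRa-GFP replicates 1 to 3. PDGFRa-GFP replicate 3 and, less so, NDRG1-eGFP replicate 2 stood apart from their groups in these genes.

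Per length, the members differed widely in level. Gpr37, an orphan receptor related to the endothelin receptors, had the highest level of all members, with a mean log2 value per kilobase of transcript of 14.42, at percentile 99.0 of all genes. S1pr5 and Lpar1 followed at 13.79 and 13.61, then Grm3 at 12.87, Gpr62 at 12.84, Gpr155 at 12.01 and Adora1 at 11.96. The median member stood at 6.92, against 8.85 over all genes. Among these 7, the highest and lowest group means differed by 0.15 log2 units for Adora1, 0.19 for Lpar1, 0.33 for Gpr155, 0.36 for Gpr37, 0.42 for Grm3, 0.43 for S1pr5 and 0.65 for Gpr62, and Gpr37, S1pr5 and Gpr62 were called in NDRG1-eGFP against PLP-GFP cells as deposited.

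**Figure D1:**
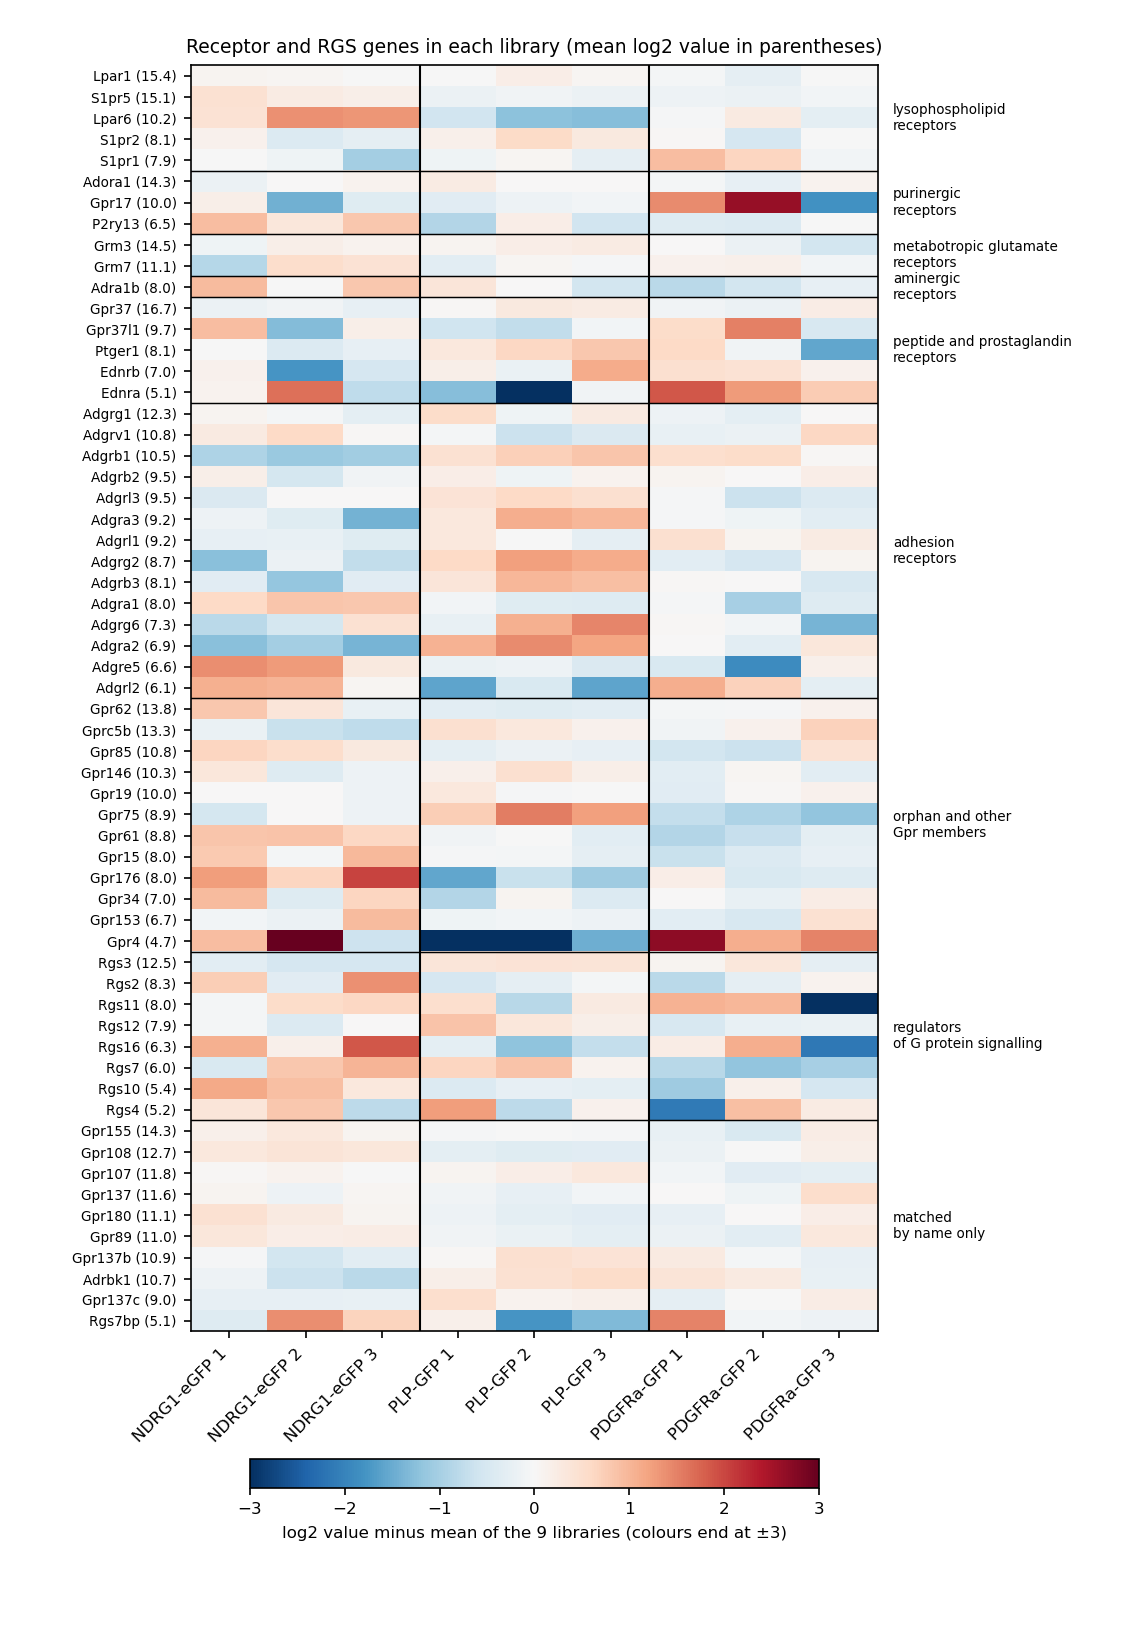
Each row is 1 member gene (all but 1 of the 61 are drawn), grouped by role, with its mean log2 value in parentheses, and each column is 1 library, in the order NDRG1-eGFP, PLP-GFP and PDGFRa-GFP. Colour gives the log2 value minus the gene's mean over the 9 libraries: abundant genes such as Lpar1 and Adora1 are pale throughout, Adgra2 and Gpr75 are highest in PLP-GFP libraries, and Gpr17 and Rgs11 are set apart by PDGFRa-GFP replicate 3.

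In NDRG1-eGFP against PLP-GFP cells, 14 of 61 members were higher and 12 lower at a limma adjusted p under 0.05, against 26.1% and 22.2% of all genes, so that the members' shares were near the background. The largest differences among members with a mean of at least 8 in the higher group were a rise of Gpr176 (log2 fold change 2.40 ± 0.38, SE, n = 3 per group) and Lpar6 (2.07 ± 0.28), and a fall of Adgra2 (-2.44 ± 0.32) and Adgrb1 (-1.70 ± 0.18). The median log2 fold change was -0.03 over the members and 0.08 over all genes. The libraries of the groups did not overlap for 35 members, against 66.4% of all genes.

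Fold changes in this comparison followed transcript length over all genes, with a Spearman correlation of -0.50 across 11272 genes and -0.40 across the members. These are correlations across genes of the same libraries, not independent replicates. With each library's smooth trend on length removed, 23 members were called in either direction, against 30.4% of all genes. Among others, both fits called Adgra1, Adgrl2, Adgrv1, Gpr108, Gpr176, Gpr4, Gpr61, Gpr85 and Lpar6 higher, and Adgra2, Adgra3, Adgrb1, Adgrb3, Adgrg2, Adrbk1, Gpr137b, Gpr75 and Rgs3 lower. Calls of Gpr180, Gpr62, P2ry13 and S1pr5 as higher and of Adgrl3, Gpr37 and Gprc5b as lower were lost without the trend. Gpr107, Gpr155 and Gpr89 then became called as higher and Gpr19 as lower.

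**Figure D2:**
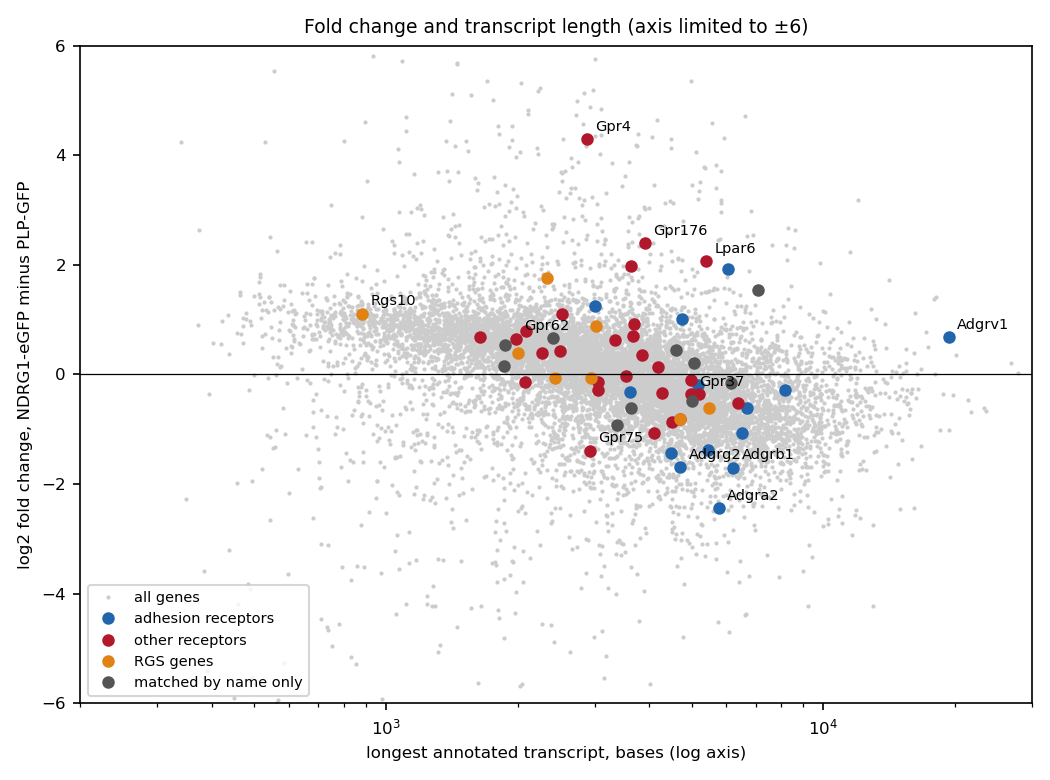
The log2 fold change of NDRG1-eGFP against PLP-GFP cells (vertical axis, as deposited, genes beyond ±6 not drawn) is plotted against the longest annotated transcript in bases (log axis) for all genes in grey and all members but 1 in colour. The grey cloud slopes down with length (Spearman correlation of -0.50), while Gpr176, Lpar6 and Adgrv1 lie above it and Gpr75 and Adgra2 below it.

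**Figure D3:**
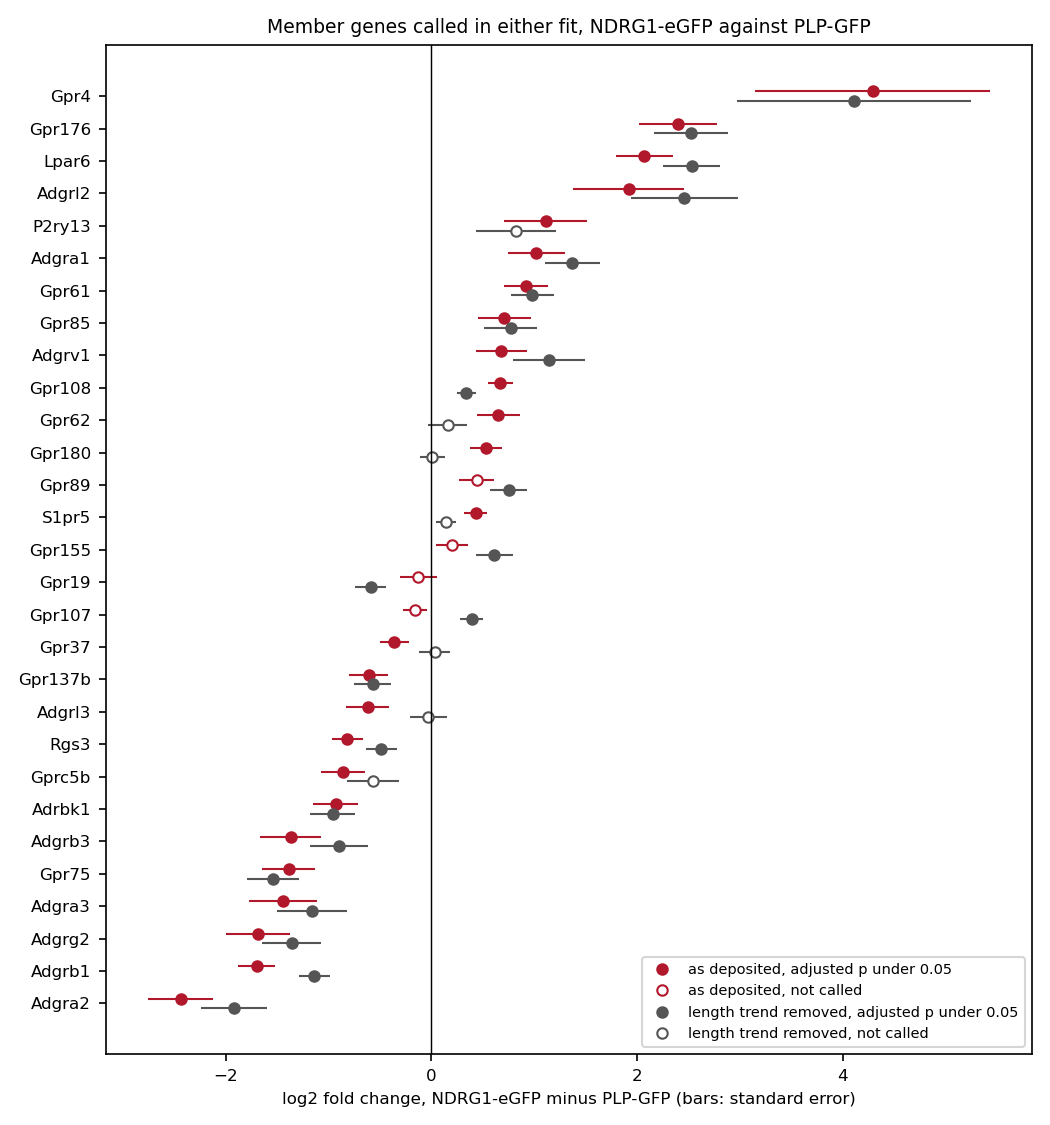
Log2 fold changes of NDRG1-eGFP against PLP-GFP cells with their standard errors are shown for members called in either fit (all but 1 are drawn), as deposited in red and with the length trend removed in grey, filled where the limma adjusted p was under 0.05. Gpr37, Gpr62, Gpr180, S1pr5 and Adgrl3 move close to 0 in the second fit, and Gpr176, Lpar6, Adgra2 and Adgrb1 stay on their side and filled.

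In PLP-GFP against PDGFRa-GFP cells, 5 members were higher and 3 lower, against 8.46% and 8.53% of all genes. Gpr75 (log2 fold change 2.11 ± 0.26, limma adjusted p = 0.00137), Adgrg2, Adgra2, Adgrl3 and Gpr107 were higher, and Gpr4 and Lpar6 were among the lower ones. With the length trend removed, 4 members were called, against 7.83% of all genes: Gpr75 as higher, and Gpr4, Lpar6 and Adgrl2 as lower. The median log2 fold change was 0.15 over the members and 0.03 over all genes. Libraries did not overlap for 21 members, against 42.3% of all genes. The counts rested on single libraries, over all genes as well as over the members. Without PLP-GFP replicate 1, 2 or 3, or PDGFRa-GFP replicate 2, the higher members numbered 3, 1, 1 and 1. The higher genes in all then numbered 604, 92, 144 and 376, where 957 were called as deposited. The lower members numbered 0 without PLP-GFP replicate 2 or PDGFRa-GFP replicate 2, 1 without PLP-GFP replicate 3 or PDGFRa-GFP replicate 1, and 5 without PDGFRa-GFP replicate 3. In the same order of fits, the lower genes in all numbered 186, 383, 225, 1103 and 1340, where 965 were called as deposited.

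In NDRG1-eGFP against PDGFRa-GFP cells, 8 members were higher and 4 lower, against 10.7% and 10.4% of all genes. The higher members were Adgre5, Gpr176, Gpr61, Adgra1, Adra1b, Lpar6, Gpr15 and S1pr5, and the lower members were Adgrb1, Adgra2, Gprc5b and Adrbk1. With the length trend removed, 7 were called, against 14.4% of all genes: Adgra1, Gpr176, Gpr61, Lpar6 and Gpr107 as higher, and Adgrb1 and Adrbk1 as lower. Libraries did not overlap for 20 members, against 35.3% of all genes. The median log2 fold change was 0.19 over the members and 0.14 over all genes. Recentring each library on the median ratio, which took the median of all genes to 0.04, gave 591 higher and 1362 lower genes, where 1207 and 1176 were called as deposited. The members then numbered 4 higher and 5 lower, with Adgre5, Adra1b, Gpr15 and S1pr5 lost. Leaving out a single library gave 3 to 12 higher and 1 to 7 lower members, against 447 to 2804 higher and 836 to 1817 lower of all genes. In all, 31 of the 61 members were called in no comparison, against 5230 of all 11315 genes. Adgra2 and Lpar6 were called in each of the 3, as were 325 of all genes. The 3 comparisons share groups and are not independent of each other.

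Of the 5 lysophospholipid receptors, 2 were higher in NDRG1-eGFP cells against each other group, Lpar6 and S1pr5. Of all genes, 26.1% were higher against PLP-GFP and 10.7% against PDGFRa-GFP. The other 3 were called in no comparison, as were 5230 of all 11315 genes. With the length trend removed, only Lpar6 of the 5 was called. Lpar6, a receptor for lysophosphatidic acid (chr14:73237895-73243294), had log2 values of 10.66, 11.58 and 11.53 in NDRG1-eGFP libraries, 9.64, 8.98 and 8.95 in PLP-GFP libraries and 10.19, 10.49 and 9.93 in PDGFRa-GFP libraries. The 3 groups did not overlap, with NDRG1-eGFP highest and PLP-GFP lowest. Its log2 fold change was 2.07 ± 0.28 against PLP-GFP (limma adjusted p = 0.000346) and 1.05 ± 0.28 against PDGFRa-GFP (adjusted p = 0.026), and with the length trend removed 2.53 and 1.18. PLP-GFP against PDGFRa-GFP gave -1.01 ± 0.28 (adjusted p = 0.0364). The call against PLP-GFP held in every fit that left out 1 library of the compared groups. The call against PDGFRa-GFP was lost without NDRG1-eGFP replicate 2 or 3 or PDGFRa-GFP replicate 1 (0.89 to 1.05, adjusted p of 0.0636 to 0.099). The call of PLP-GFP against PDGFRa-GFP was lost without PLP-GFP replicate 2 or 3 or PDGFRa-GFP replicate 1 or 2 (-1.02 to -0.87). Lpar6 is also known in endothelium, of which only 3 of 9 listed markers were measured. Their sum was 3.46 to 20 ppm with NDRG1-eGFP, 3.52 to 5.26 ppm with PLP-GFP and 9.75 to 15.5 ppm with PDGFRa-GFP. Of these markers Itm2a had mean log2 values of 9.12 in NDRG1-eGFP, 6.66 in PLP-GFP and 9.36 in PDGFRa-GFP cells, while Cldn5 (5.13 in NDRG1-eGFP, 6.09 in PLP-GFP and 0.83 in PDGFRa-GFP) and Slco1c1 (5.86 in NDRG1-eGFP, 6.30 in PLP-GFP and 5.26 in PDGFRa-GFP) were highest in PLP-GFP cells, where Lpar6 was lowest. Their part in the Lpar6 values was not tested. Fewer cells of a type and less RNA per cell cannot be told apart in such bulk samples.

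S1pr5, the sphingosine-1-phosphate receptor typical of oligodendrocytes (chr9:21242912-21248443), had log2 values of 15.56, 15.35 and 15.28 in NDRG1-eGFP libraries, 14.95, 15.01 and 14.94 in PLP-GFP libraries and 14.97, 14.94 and 15.03 in PDGFRa-GFP libraries. NDRG1-eGFP libraries were all above the other 6, which lay within 0.1 of each other. The log2 fold change was 0.43 ± 0.11 against PLP-GFP (limma adjusted p = 0.00837) and 0.42 ± 0.11 against PDGFRa-GFP (adjusted p = 0.023), and 0.14 and 0.18 with the length trend removed, where neither was called. The second call was also lost without NDRG1-eGFP replicate 1 or 2 or PDGFRa-GFP replicate 1 or 2 (0.34 to 0.44). Lpar1, the main lysophosphatidic acid receptor of oligodendrocytes, averaged 15.47 ± 0.05 in NDRG1-eGFP, 15.51 ± 0.11 in PLP-GFP and 15.32 ± 0.13 in PDGFRa-GFP cells (SD, n = 3 each) and was called in no comparison. Its difference between NDRG1-eGFP and PLP-GFP cells was -0.03 ± 0.11 (SE). S1pr1, which couples to inhibitory G proteins and is high in endothelium, had 7.86, 7.76 and 6.87 in NDRG1-eGFP libraries, 7.76, 7.95 and 7.61 in PLP-GFP libraries and 8.81, 8.53 and 7.80 in PDGFRa-GFP libraries. The groups overlapped and no difference was called. Without PDGFRa-GFP replicate 3 its NDRG1-eGFP against PDGFRa-GFP value was -1.18 ± 0.32 (adjusted p = 0.0155). S1pr2 was called in no comparison.

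Of the purinergic members, Adora1, the inhibitory adenosine receptor, averaged 14.25 ± 0.14 in NDRG1-eGFP, 14.35 ± 0.13 in PLP-GFP and 14.20 ± 0.18 in PDGFRa-GFP cells, and no difference was called. Of the Adora1 exon bases 20.1% overlap Mybph on the opposite strand. Gpr17, a receptor of committed progenitors and newly forming oligodendrocytes, had 10.19, 8.58 and 9.67 in NDRG1-eGFP libraries, 9.68, 9.88 and 9.93 in PLP-GFP libraries and 11.44, 12.64 and 8.20 in PDGFRa-GFP libraries. PDGFRa-GFP replicates 1 and 2 were the highest of all 9 libraries and replicate 3 was the lowest. With that spread no difference was called (log2 fold change -0.93 ± 0.88 in PLP-GFP against PDGFRa-GFP, limma adjusted p = 0.482). Without PDGFRa-GFP replicate 3 the value was -2.21 ± 0.43 (adjusted p = 0.00777), and -2.56 ± 0.43 in NDRG1-eGFP against PDGFRa-GFP (adjusted p = 0.00194). The median of the 8 measured progenitor markers in PDGFRa-GFP replicates 1 to 3 was 7.14, 8.34 and 6.32, in the same order as Gpr17. Pdgfra, Cspg4, Vcan, Ptprz1, Sox6 and Lhfpl3 each had that order. Matn4 (7.97, 8.63 and 8.14) and Olig1 (16.68, 16.86 and 16.77) put replicate 3 above replicate 1. The markers' sum of 1736, 1986 and 1838 ppm did so too, but Olig1 made up nearly all of it. The part of the progenitor markers in the Gpr17 values was not tested. P2ry13, an ADP receptor of microglia, had 7.48, 6.89 and 7.35 in NDRG1-eGFP libraries, 5.67, 6.75 and 5.98 in PLP-GFP libraries and 6.16, 6.13 and 6.53 in PDGFRa-GFP libraries. All 3 NDRG1-eGFP libraries lay above the others. It was called against PLP-GFP (1.11 ± 0.40, adjusted p = 0.0419) but not without NDRG1-eGFP replicate 1 or 3 or PLP-GFP replicate 1 or 3 (0.88 to 1.05), after recentring (1.03), or with the length trend removed. Microglial markers rose in the same comparison in 9 of 11 cases, and their part in the values of P2ry13 and of the microglial members Gpr34 and Rgs10 was not tested.

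The glutamate receptor gene Grm3, whose product inhibits adenylyl cyclase, averaged 14.53 ± 0.17 in NDRG1-eGFP, 14.66 ± 0.08 in PLP-GFP and 14.24 ± 0.28 in PDGFRa-GFP cells. The PLP-GFP libraries lay above the PDGFRa-GFP libraries, but the difference was not called (0.42 ± 0.15, limma adjusted p = 0.0805), except without PDGFRa-GFP replicate 1 (0.55 ± 0.15, adjusted p = 0.0361). Grm7, a receptor of the same inhibitory kind, had 10.25, 11.64 and 11.54 in NDRG1-eGFP libraries, 10.78, 11.16 and 11.07 in PLP-GFP libraries and 11.23, 11.25 and 11.01 in PDGFRa-GFP libraries. NDRG1-eGFP replicate 1 was the lowest of all and no difference was called. Without that library it was called in NDRG1-eGFP against PLP-GFP cells (0.58 ± 0.17, adjusted p = 0.0231). Adra1b, an alpha adrenergic receptor, had 8.96, 8.02 and 8.82 in NDRG1-eGFP libraries, 8.38, 8.04 and 7.48 in PLP-GFP libraries and 7.22, 7.48 and 7.78 in PDGFRa-GFP libraries. NDRG1-eGFP libraries lay above all PDGFRa-GFP libraries and overlapped the PLP-GFP ones. It was called against PDGFRa-GFP (1.11 ± 0.33, adjusted p = 0.0399), but not without NDRG1-eGFP replicate 1 or 3 or PDGFRa-GFP replicate 1 or 2 (0.93 to 1.10), nor after recentring (1.01). P2ry13 lies outside the naming rule and was chosen after its values were seen.

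**Figure D4:**
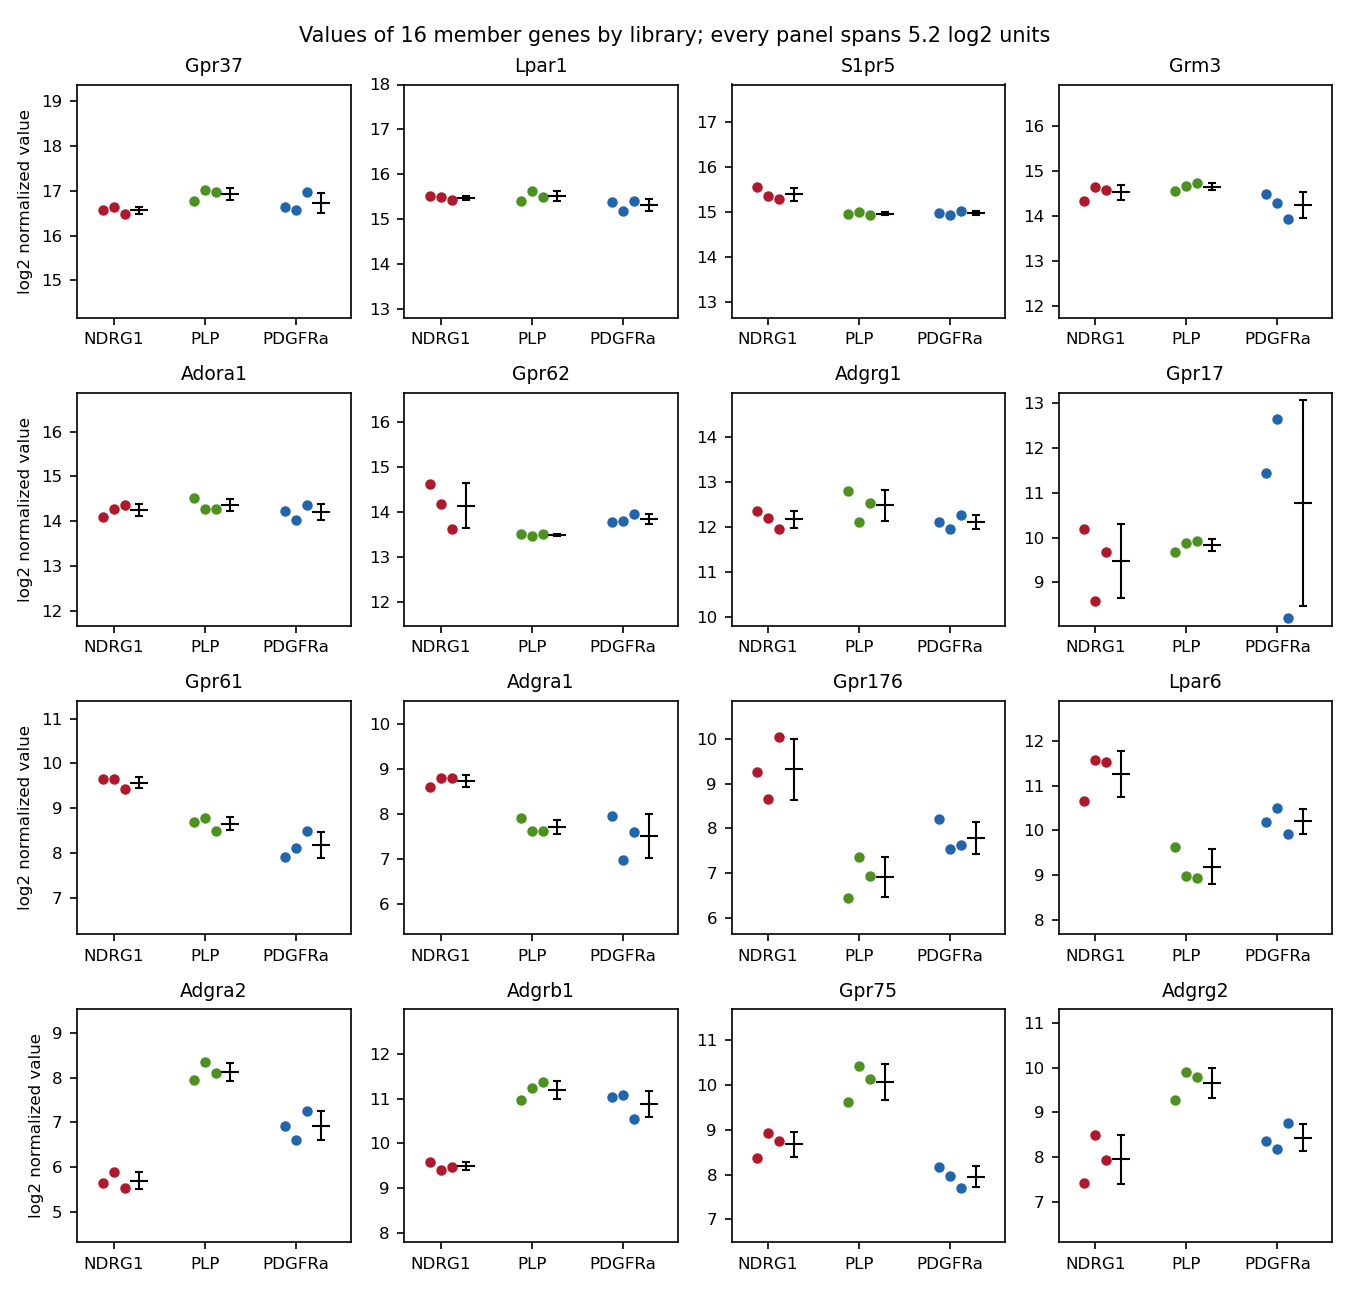
Log2 normalised values of 16 members are plotted for each library as points, in the order NDRG1-eGFP, PLP-GFP and PDGFRa-GFP, with the mean and SD of 3 libraries beside them, and every panel spans the same number of log2 units. Gpr37, Lpar1 and Adora1 are flat, Gpr61, Adgra1, Gpr176 and Lpar6 are highest in NDRG1-eGFP cells, Adgra2, Gpr75 and Adgrg2 are highest in PLP-GFP cells, and Gpr17 ranges from 8.20 to 12.64 within the PDGFRa-GFP group.

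Gpr37 (chr6:25665878-25690729) had log2 values of 16.57, 16.63 and 16.48 in NDRG1-eGFP libraries, 16.77, 17.02 and 16.98 in PLP-GFP libraries and 16.64, 16.57 and 16.97 in PDGFRa-GFP libraries. NDRG1-eGFP libraries lay below the PLP-GFP libraries, with a difference of -0.36 ± 0.14 (limma adjusted p = 0.0462). With the length trend removed it was 0.03 ± 0.15, and without any 1 of NDRG1-eGFP replicates 1, 2 and 3 or PLP-GFP replicates 2 and 3 it was also not called (-0.40 to -0.32). Its relative Gpr37l1, better known from astrocytes, had 10.63, 8.39 and 9.88 in NDRG1-eGFP libraries, 9.11, 8.97 and 9.62 in PLP-GFP libraries and 10.26, 11.20 and 9.23 in PDGFRa-GFP libraries. The groups overlapped and no difference was called. The endothelin receptor gene Ednrb averaged 6.27 ± 0.97 in NDRG1-eGFP, 7.33 ± 0.67 in PLP-GFP and 7.33 ± 0.19 in PDGFRa-GFP cells, with no call except in NDRG1-eGFP against PLP-GFP cells without NDRG1-eGFP replicate 1 (-1.49 ± 0.51, adjusted p = 0.046). Ednra, a receptor of smooth muscle and fibroblasts, was not called either, at 5.42 ± 1.23 in NDRG1-eGFP, 3.45 ± 1.73 in PLP-GFP and 6.38 ± 0.55 in PDGFRa-GFP cells. The prostaglandin receptor gene Ptger1 shares 63.0% of its exon bases with a gene on the opposite strand, and its values of 7.88 ± 0.20 in NDRG1-eGFP, 8.69 ± 0.25 in PLP-GFP and 7.76 ± 1.10 in PDGFRa-GFP cells are uncertain, since the counting is not stated to use strand. It was not called, except in PLP-GFP against PDGFRa-GFP cells without PDGFRa-GFP replicate 1 (1.41 ± 0.41, adjusted p = 0.041).

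The adhesion receptors, which carry long extracellular regions that bind matrix or neighbouring cells, held 6 of the 12 falls in NDRG1-eGFP against PLP-GFP cells. Of 14 adhesion receptors, 3 were higher, 6 lower and 5 not called, against 26.1% of all genes higher and 22.2% lower, with a median log2 fold change of -0.47. With the length trend removed they numbered 3, 5 and 6, against 30.4% of all genes called in either direction, with a median of -0.15. Adgra2, a Wnt co-receptor known from brain vessels (chr8:27085583-27123436), had log2 values of 5.65, 5.90 and 5.53 in NDRG1-eGFP libraries, 7.95, 8.34 and 8.10 in PLP-GFP libraries and 6.92, 6.60 and 7.25 in PDGFRa-GFP libraries. The 3 groups did not overlap. Its log2 fold change was -2.44 ± 0.32 in NDRG1-eGFP against PLP-GFP (limma adjusted p = 0.000298) and -1.92 ± 0.32 with the length trend removed. Against PDGFRa-GFP it was -1.23 ± 0.32 (adjusted p = 0.0237), a call lost with the length trend removed (adjusted p = 0.0502) and without NDRG1-eGFP replicate 1 or 3 or PDGFRa-GFP replicate 1 (-1.23 to -1.15). PLP-GFP against PDGFRa-GFP gave 1.20 ± 0.32 (adjusted p = 0.0321), lost in 5 of 6 fits without 1 library of these groups, all but that without PDGFRa-GFP replicate 3 (lost fits 1.04 to 1.30).

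Adgrb1, an engulfment and synaptic receptor (chr15:74516195-74589465), had 9.59, 9.41 and 9.47 in NDRG1-eGFP libraries, 10.97, 11.23 and 11.36 in PLP-GFP libraries and 11.03, 11.07 and 10.55 in PDGFRa-GFP libraries. NDRG1-eGFP libraries were all below the other 6. The fitted log2 difference was -1.70 ± 0.18 against PLP-GFP (limma adjusted p = 7.19e-05) and -1.39 ± 0.18 against PDGFRa-GFP (adjusted p = 0.000489). With the length trend removed the differences were -1.14 and -1.19, called in both. As deposited both were called in every fit that left out 1 library of the compared groups. Adgrb3, its relative that binds C1q-like proteins, was also lower in NDRG1-eGFP relative to PLP-GFP cells (-1.37 ± 0.30, adjusted p = 0.00454). So were Adgra3 (-1.44 ± 0.33, adjusted p = 0.00518) and Adgrg2 (-1.69 ± 0.31, adjusted p = 0.00149). Adgrg2 had 7.42, 8.50 and 7.94 in NDRG1-eGFP libraries, 9.27, 9.90 and 9.79 in PLP-GFP libraries and 8.36, 8.18 and 8.77 in PDGFRa-GFP libraries. PLP-GFP cells were highest, also against PDGFRa-GFP (1.21 ± 0.31, adjusted p = 0.0264), though not without PLP-GFP replicate 2 or 3 or PDGFRa-GFP replicate 2 (1.09 to 1.15) or with the length trend removed (0.92). Adgrl3, a latrophilin of synapses, averaged 9.39 ± 0.25 in NDRG1-eGFP, 10.01 ± 0.09 in PLP-GFP and 9.16 ± 0.31 in PDGFRa-GFP cells. It was called lower in NDRG1-eGFP against PLP-GFP (-0.62 ± 0.21, adjusted p = 0.0287) and higher in PLP-GFP against PDGFRa-GFP (0.85 ± 0.21, adjusted p = 0.0236), but both calls were lost with the length trend removed (-0.03 and 0.49). As deposited they were lost without NDRG1-eGFP replicate 1 or any PLP-GFP replicate (-0.66 to -0.48), and without PLP-GFP replicate 2 or 3 or PDGFRa-GFP replicate 2 (0.71 to 0.86). Exon bases of Adgrl3 overlap an antisense transcript by 14.8%.

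Adgra1, an orphan of the same family as Adgra2, went the other way. It had 8.59, 8.81 and 8.80 in NDRG1-eGFP libraries, 7.90, 7.63 and 7.61 in PLP-GFP libraries and 7.95, 6.98 and 7.60 in PDGFRa-GFP libraries, with all NDRG1-eGFP libraries above the rest. Its log2 fold change was 1.02 ± 0.28 against PLP-GFP (limma adjusted p = 0.013), missed only without PLP-GFP replicate 3 (0.97, adjusted p = 0.0504), and 1.22 ± 0.28 against PDGFRa-GFP (adjusted p = 0.0139). Adgrv1, a very large receptor of hair cells, was 0.68 ± 0.25 higher than in PLP-GFP cells (adjusted p = 0.0467), a call lost without NDRG1-eGFP replicate 1 or 2 or PLP-GFP replicate 2 or 3 (0.53 to 0.70) and after recentring (0.61). Adgrg1, which keeps progenitors proliferating in mice, averaged 12.17 ± 0.20 in NDRG1-eGFP, 12.49 ± 0.35 in PLP-GFP and 12.11 ± 0.15 in PDGFRa-GFP cells and was not called, its groups overlapping in each comparison. Below the level of the naming rule, Adgrl2 was 1.92 ± 0.54 higher than in PLP-GFP cells (adjusted p = 0.0145; 1.73 to 1.77 and not called without NDRG1-eGFP replicate 1 or 2 or PLP-GFP replicate 3), and Adgre5, a leukocyte receptor, 1.71 ± 0.54 higher than in PDGFRa-GFP cells (adjusted p = 0.046). The Adgre5 call was lost without NDRG1-eGFP replicate 1 or 2 or PDGFRa-GFP replicate 1 or 2 (1.14 to 1.85) and after recentring (1.62), and 25.6% of its exon bases overlap Ddx39. Adgrg6, the receptor of Schwann cell myelination, was called in no comparison, except without PLP-GFP replicate 1 in NDRG1-eGFP against PLP-GFP cells (-1.56 ± 0.54, adjusted p = 0.0441). Adgrb2 and Adgrl1 were called in no comparison. Adgrl2, Adgre5, Adgrg6, Adgrb2 and Adgrl1 lie outside the naming rule and are given to account for every adhesion member.

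Among the other Gpr genes, Gpr75 (chr11:30885358-30893729), a receptor with debated ligands, rose in PLP-GFP cells against each other group. It had 8.37, 8.92 and 8.75 in NDRG1-eGFP libraries, 9.63, 10.43 and 10.13 in PLP-GFP libraries and 8.18, 7.97 and 7.71 in PDGFRa-GFP libraries. The groups did not overlap. The gene's log2 fold change was 2.11 ± 0.26 in PLP-GFP against PDGFRa-GFP (limma adjusted p = 0.00137) and -1.39 ± 0.26 in NDRG1-eGFP against PLP-GFP (adjusted p = 0.00169), and 2.08 and -1.54 with the length trend removed. In fits that left out 1 library of the compared groups these ran from 1.93 to 2.33 and from -1.60 to -1.20, called throughout. NDRG1-eGFP against PDGFRa-GFP was not called (0.73 ± 0.26, adjusted p = 0.0678).

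Gpr176, an orphan tied to the circadian clock in mice (chr2:118277110-118373419), had 9.26, 8.66 and 10.03 in NDRG1-eGFP libraries, 6.45, 7.35 and 6.94 in PLP-GFP libraries and 8.20, 7.54 and 7.63 in PDGFRa-GFP libraries. The groups did not overlap, with NDRG1-eGFP highest and PLP-GFP lowest. Its log2 fold change was 2.40 ± 0.38 against PLP-GFP (limma adjusted p = 0.000743), called in every fit without 1 library of the compared groups. Against PDGFRa-GFP it was 1.53 ± 0.38 (adjusted p = 0.0194), a call lost without NDRG1-eGFP replicate 1 or 3 or PDGFRa-GFP replicate 2 (1.17 to 1.56). Gpr61, a constitutively active orphan (chr3:108148321-108154882), had 9.64, 9.65 and 9.42 in NDRG1-eGFP libraries, 8.69, 8.78 and 8.49 in PLP-GFP libraries and 7.92, 8.11 and 8.50 in PDGFRa-GFP libraries. NDRG1-eGFP libraries were all above the other 6. The differences were 0.92 ± 0.21 against PLP-GFP (adjusted p = 0.00545) and 1.39 ± 0.21 against PDGFRa-GFP (adjusted p = 0.00153). Both were called with the length trend removed (0.98 and 1.29) and in every fit without 1 library of the compared groups. Its relative Gpr62, an abundant orphan of oligodendrocytes, had 14.63, 14.18 and 13.61 in NDRG1-eGFP libraries, 13.50, 13.46 and 13.50 in PLP-GFP libraries and 13.77, 13.79 and 13.96 in PDGFRa-GFP libraries. All NDRG1-eGFP libraries lay above the PLP-GFP ones (0.65 ± 0.21, adjusted p = 0.026). That call was lost with the length trend removed (0.16) and without any 1 of NDRG1-eGFP replicates 1 and 2 and the 3 PLP-GFP replicates (0.41 to 0.66). Without NDRG1-eGFP replicate 3 it was called against PDGFRa-GFP (0.56 ± 0.15, adjusted p = 0.0365).

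Gprc5b, an orphan with a class C membrane core, had 13.10, 12.64 and 12.53 in NDRG1-eGFP libraries, 13.79, 13.61 and 13.44 in PLP-GFP libraries and 13.20, 13.42 and 13.99 in PDGFRa-GFP libraries. NDRG1-eGFP libraries were all below the other 6. The log2 fold change was -0.86 ± 0.21 against PLP-GFP (limma adjusted p = 0.00799) and -0.78 ± 0.21 against PDGFRa-GFP (adjusted p = 0.0282), but called in neither comparison with the length trend removed, and not against PDGFRa-GFP without NDRG1-eGFP replicate 2 or 3 (-0.72 and -0.67). Of its exon bases 13.4% overlap Iqck. Gpr85, an orphan of neurons, was 0.71 ± 0.26 higher than in PLP-GFP cells (adjusted p = 0.0398). That call was lost after recentring (0.63) and without any 1 of NDRG1-eGFP replicates 1 and 2 and the 3 PLP-GFP replicates (0.64 to 0.75). Without PDGFRa-GFP replicate 3 it was called against PDGFRa-GFP (1.08 ± 0.13, adjusted p = 0.000332). Gpr15, a homing receptor of lymphocytes, was 1.02 ± 0.30 higher than in PDGFRa-GFP cells (adjusted p = 0.036), but not called after recentring or without NDRG1-eGFP replicate 1 or 3 or PDGFRa-GFP replicate 1 or 2 (0.81 to 1.03). Without NDRG1-eGFP replicate 2 it was called against PLP-GFP (1.01 ± 0.26, adjusted p = 0.015). Gpr34, a microglial receptor for lysophosphatidylserine, had 7.91, 6.58 and 7.61 in NDRG1-eGFP libraries, 6.10, 7.05 and 6.57 in PLP-GFP libraries and 6.98, 6.75 and 7.19 in PDGFRa-GFP libraries. The groups overlapped and no difference was called, though NDRG1-eGFP against PLP-GFP was without NDRG1-eGFP replicate 2 (1.19 ± 0.39, adjusted p = 0.0368). Gpr19, Gpr146 and Gpr153 were called in no comparison as deposited.

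Gpr4, a proton-sensing receptor of endothelium, had the largest fold changes of all members and the largest standard error. It had 5.65, 8.20 and 4.09 in NDRG1-eGFP libraries, 1.52, 0.32 and 3.24 in PLP-GFP libraries and 7.41, 5.80 and 6.21 in PDGFRa-GFP libraries. PLP-GFP libraries were all below the other 6, in the lowest part of the range. The log2 fold change was 4.29 ± 1.14 in NDRG1-eGFP against PLP-GFP (limma adjusted p = 0.0109; 3.17 and not called without NDRG1-eGFP replicate 2) and -4.78 ± 1.14 in PLP-GFP against PDGFRa-GFP (adjusted p = 0.0232; -5.11 to -4.09 and not called without PLP-GFP replicate 2 or PDGFRa-GFP replicate 1 or 2). In NDRG1-eGFP against PLP-GFP cells 7 of the 8 fibroblast-like and meningeal markers rose, and in PLP-GFP against PDGFRa-GFP cells 7 of 8 fell. Their sums, given above, were likewise lowest in the PLP-GFP libraries. NDRG1-eGFP replicate 3 was lowest of its group both in these sums and in Gpr4. In PDGFRa-GFP replicates 1 to 3 the sums were 198, 120 and 106 ppm, whereas Gpr4 was lowest in replicate 2. The part of these markers, and of the endothelial markers given with Lpar6, in the Gpr4 and Ednra values was not tested. Gpr4 was chosen after its values were seen.

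Of the 8 RGS genes, 1 was called in any comparison as deposited, against 6085 of all 11315 genes. Rgs3, an activator of nucleotide hydrolysis (chr4:62559847-62704001), had 12.21, 12.02 and 12.01 in NDRG1-eGFP libraries, 12.89, 12.92 and 12.90 in PLP-GFP libraries and 12.60, 12.85 and 12.24 in PDGFRa-GFP libraries. NDRG1-eGFP libraries were all below the PLP-GFP libraries. The difference was -0.82 ± 0.15 (limma adjusted p = 0.00188), and -0.49 ± 0.15 with the length trend removed (adjusted p = 0.0332). Against PDGFRa-GFP the adjusted p was 0.0501, and 0.0023 without PDGFRa-GFP replicate 3 (-0.64 ± 0.11). Of its 50-base transcript windows 16% also occur at the pseudogene Gm5763, so its counts may be split. Rgs2, an inhibitor of signalling through the phospholipase-coupled alpha subunit and inducible by activity, had 9.05, 7.98 and 9.69 in NDRG1-eGFP libraries, 7.81, 8.04 and 8.24 in PLP-GFP libraries and 7.51, 8.05 and 8.41 in PDGFRa-GFP libraries. NDRG1-eGFP replicates 1 and 3 were the highest of all and replicate 2 lay among the rest. It was not called, except without NDRG1-eGFP replicate 2 (1.34 ± 0.33 against PLP-GFP, adjusted p = 0.013, and 1.38 ± 0.33 against PDGFRa-GFP, adjusted p = 0.0295). Rgs16, also inducible, had 7.41, 6.49 and 8.20 in NDRG1-eGFP libraries, 6.05, 5.14 and 5.63 in PLP-GFP libraries and 6.56, 7.43 and 4.21 in PDGFRa-GFP libraries. Within the NDRG1-eGFP group both genes ranked the replicates as the immediate early sums did, whereas PDGFRa-GFP replicate 3 was lowest of its group in Rgs16 and highest in Rgs2. The part of these genes in the Rgs2 and Rgs16 values was not tested.

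Rgs10, which is high in microglia, averaged 6.17 ± 0.42 in NDRG1-eGFP, 5.06 ± 0.08 in PLP-GFP and 4.91 ± 0.61 in PDGFRa-GFP cells, with NDRG1-eGFP libraries above the rest, and was not called (1.11 ± 0.55 against PLP-GFP, limma adjusted p = 0.121). Rgs4, a marker of some neurons and mural cells, averaged 5.36 ± 0.82 in NDRG1-eGFP, 5.43 ± 1.02 in PLP-GFP and 4.91 ± 1.58 in PDGFRa-GFP cells and was not called. Rgs7, a partner of the G protein subunit Gnb5, averaged 6.44 ± 0.80 in NDRG1-eGFP, 6.51 ± 0.38 in PLP-GFP and 4.97 ± 0.18 in PDGFRa-GFP cells. Its PDGFRa-GFP libraries lay below 5.2 and every other library above 5.5, but neither difference passed the test as deposited (1.46 ± 0.51, adjusted p = 0.0653, in NDRG1-eGFP against PDGFRa-GFP, and 1.53 ± 0.51, adjusted p = 0.0621, in PLP-GFP against PDGFRa-GFP). NDRG1-eGFP against PDGFRa-GFP passed without NDRG1-eGFP replicate 1 (1.92 ± 0.46, adjusted p = 0.0281). Rgs11 was set by 1 library, PDGFRa-GFP replicate 3 at 4.88, with the other 8 between 7.16 and 9.04. Rgs12 was not called.

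The members matched by name only included the receptor kinase gene Adrbk1, whose product phosphorylates active receptors (chr19:4286001-4306222, Grk2 in the annotation). It had 10.55, 10.07 and 9.90 in NDRG1-eGFP libraries, 10.88, 11.17 and 11.27 in PLP-GFP libraries and 11.09, 10.98 and 10.50 in PDGFRa-GFP libraries. NDRG1-eGFP libraries lay below the PLP-GFP libraries (-0.93 ± 0.22, limma adjusted p = 0.00558) and overlapped the PDGFRa-GFP ones in 1 library (-0.68 ± 0.22, adjusted p = 0.0466). The second call was lost without NDRG1-eGFP replicate 2 or 3 or PDGFRa-GFP replicate 1 or 2 (-0.63 to -0.55). Gpr108, an intracellular membrane protein, was higher in NDRG1-eGFP relative to PLP-GFP cells, at 13.05 ± 0.04 in NDRG1-eGFP and 12.38 ± 0.04 in PLP-GFP cells, by 0.67 ± 0.12 (adjusted p = 0.00126) or 0.34 ± 0.09 with the length trend removed. Its relative Gpr107 averaged 11.86 ± 0.05 in NDRG1-eGFP, 12.02 ± 0.12 in PLP-GFP and 11.58 ± 0.14 in PDGFRa-GFP cells, and its NDRG1-eGFP against PLP-GFP value was -0.16 ± 0.12 as deposited and not called, but 0.39 ± 0.11 with the length trend removed (adjusted p = 0.0247). Its call in PLP-GFP against PDGFRa-GFP (0.44 ± 0.12, adjusted p = 0.0371) was lost with the length trend removed (0.08) and without any 1 PLP-GFP replicate or PDGFRa-GFP replicate 2 (0.39 to 0.50). Gpr180, a mostly uncharacterised membrane protein, was called higher than in PLP-GFP cells (0.53 ± 0.16, adjusted p = 0.0183), and 0.01 with the length trend removed. The call was also lost without NDRG1-eGFP replicate 1 or 2 or PLP-GFP replicate 2 or 3 (0.44 to 0.53). Gpr137b, a lysosomal membrane protein, was lower than in PLP-GFP cells (-0.61 ± 0.19, adjusted p = 0.0233), not so without NDRG1-eGFP replicate 2 or 3 or PLP-GFP replicate 2 or 3 (-0.61 to -0.49), and 31.1% of its windows occur elsewhere, chiefly at a pseudogene. Gpr155, a cholesterol sensor of lysosomes, and Gpr89, a Golgi anion channel, were called in NDRG1-eGFP against PDGFRa-GFP cells without PDGFRa-GFP replicate 3 (0.52 ± 0.11 and 0.50 ± 0.12), as Gpr108 was (0.43 ± 0.10). Of Gpr89's exon bases, 32.6% overlap Pdzk1 and Gja5, and of Gpr155's, 5.7% overlap genes on the opposite strand. Gpr137, Gpr137c and Rgs7bp were called in no comparison as deposited, and Gpr137c was in NDRG1-eGFP against PLP-GFP after recentring (-0.56 ± 0.19, adjusted p = 0.0367).

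The wider pathway was examined through lists of G protein subunits, effectors, further receptors and ligand enzymes, read as counts only. In NDRG1-eGFP against PLP-GFP cells, these counts stand beside 26.1% of all genes higher and 22.2% lower as deposited, and 30.4% called in either direction with the length trend removed. Of 11 measured alpha subunit genes, 1 was higher and 4 lower in NDRG1-eGFP relative to PLP-GFP cells, and 0 and 2 with the length trend removed. The alpha subunit gene Gna12 averaged 12.22 in NDRG1-eGFP cells, 15.25 in PLP-GFP cells and 14.76 in PDGFRa-GFP cells. The log2 fold change was -3.02 ± 0.30 against PLP-GFP (limma adjusted p = 5.04e-05) and -2.53 ± 0.30 against PDGFRa-GFP (adjusted p = 0.000276), and nearly the same with the length trend removed (-3.04 and -2.67). Of 14 beta and gamma subunit genes, 4 were higher and 3 lower than in PLP-GFP cells, and 1 and 4 with the length trend removed. Gnb1, the common beta subunit, was lower (-1.49 ± 0.26, adjusted p = 0.00116), and Gnb4 higher (0.83 ± 0.14, adjusted p = 0.0012). The gamma subunit gene Gng8 was higher by 1.29 ± 0.16 as deposited (adjusted p = 0.000193) and not called with the length trend removed (0.52, adjusted p = 0.0551).

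Among the effectors, 5 of 14 measured phosphodiesterase genes were lower and 1 higher in NDRG1-eGFP relative to PLP-GFP cells, and 3 lower and 2 higher with the length trend removed. Pde8a, an enzyme that degrades cyclic AMP, was lower (-1.47 ± 0.14, limma adjusted p = 3.2e-05), also against PDGFRa-GFP (-1.41 ± 0.14, adjusted p = 5.65e-05). Of the 4 measured adenylyl cyclase genes, Adcy5 and Adcy9 were lower than in PLP-GFP cells (-0.61 ± 0.12 and -0.94 ± 0.28), and neither was with the length trend removed. In the list of protein kinase A, Epac and CREB genes, 2 of 22 were higher and 7 lower, among them the anchoring protein gene Akap6 (-1.64 ± 0.21, adjusted p = 0.000261), but 2 and 3 with the length trend removed. In the phospholipase C list 2 of 19 were higher and 6 lower, and 0 and 2 with the length trend removed. Of 9 measured receptor kinase and arrestin genes beside Adrbk1, 1 was higher, Arrdc1 (0.77 ± 0.24, adjusted p = 0.0238), and 1 lower, Arrb1 (-2.08 ± 0.60, adjusted p = 0.0159). Neither was called with the length trend removed (0.18, adjusted p = 0.538, and -1.47, adjusted p = 0.0761), where 0 genes of the list were higher and 2 lower.

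Of 25 measured receptor genes outside the name rule, 7 were higher and 7 lower in NDRG1-eGFP relative to PLP-GFP cells, and 8 and 3 with the length trend removed. In PLP-GFP against PDGFRa-GFP 2 were higher and 5 lower, against 8.46% and 8.53% of all genes, and 1 and 3 with the trend removed. In NDRG1-eGFP against PDGFRa-GFP 1 was higher and 3 lower, against 10.7% and 10.4% of all genes, and 1 and 1 with the trend removed. Bdkrb2, a bradykinin receptor, averaged 4.40 in NDRG1-eGFP cells, 8.90 in PLP-GFP cells and 5.62 in PDGFRa-GFP cells (-4.49 ± 0.76 in NDRG1-eGFP against PLP-GFP, limma adjusted p = 0.00104). The Wnt-pathway receptor gene Lgr4 averaged 9.45 in NDRG1-eGFP cells and 10.74 in PLP-GFP cells (-1.29 ± 0.27, adjusted p = 0.00305). Of 20 measured genes of ligand synthesis and clearance, 8 were higher and 4 lower in NDRG1-eGFP relative to PLP-GFP cells, and 2 and 3 with the length trend removed. The sphingosine-1-phosphate exporter gene Spns2 averaged 12.20 in NDRG1-eGFP cells, 13.72 in PLP-GFP cells and 13.50 in PDGFRa-GFP cells (-1.52 ± 0.31, adjusted p = 0.00276, in NDRG1-eGFP against PLP-GFP, and -1.31 ± 0.31, adjusted p = 0.0152, in NDRG1-eGFP against PDGFRa-GFP). Psap, which encodes the precursor of a proposed Gpr37 ligand, averaged 15.97 in NDRG1-eGFP cells and 16.58 in PLP-GFP cells (-0.61 ± 0.20, adjusted p = 0.0263).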

How the data were processed

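RNA from sorted mouse brain cells had been sequenced in 9 libraries, 3 per reporter, and each deposited file held, per the file headers, a gene symbol and a normalized log2 value for 11315 genes. BWA, DESeq2 1.2.5 and the build mm10 appear in the submitters' processing notes without a stated role. Raw counts were not analysed here, so depth and counting error are unknown. The values were already logarithms and were used without an added constant.

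The test was limma-trend (limma 3.58.1, R 4.3.3) over all 11315 genes and 9 libraries, with a term per group, two-sided, with Benjamini-Hochberg adjustment over all genes and a call at adjusted p under 0.05. Errors of fold changes are standard errors of that fit, and errors of levels are SDs over 3 libraries. Fold changes are the first-named group minus the second. For single genes, fits that left out a library are given for the compared groups only, although the remaining group also entered each fit. Ranges of counts cover the fits without each of the 9 libraries. An exact permutation test of 3 against 3 could not reach that threshold and was not used. The fit was tested on simulated data.

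Transcript lengths, exon overlaps and shared 50-base windows were read from the GENCODE M21 annotation of GRCm38 (a length for 11272 genes), and promoters from RefSeq. In the second fit a lowess trend (span 0.3) on log2 transcript length was subtracted from each library.

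Members, lists and alternatives were chosen with earlier results of these data known. Named members were the called ones with libraries that did not overlap and a mean of at least 8 in the higher group, up to 12 in each direction, and a list of oligodendrocyte receptors and RGS genes, of which Grm5, Chrm1, Chrm3, P2ry1 and Rgs5 were not among the 11315 genes. Members outside this rule were added, with values seen, to account for the 61. The values of 1 member are not reported here, though it stays in the counts. The listed cell types were progenitors, mature oligodendrocytes, microglia, astrocytes, endothelium, mural cells, fibroblast-like cells and neurons, with immediate early genes. The astrocyte markers summed to 181 to 207 ppm of the total of linear values in NDRG1-eGFP libraries, 169 to 212 in PLP-GFP and 191 to 245 in PDGFRa-GFP, the 7 measured neuronal markers to 73 to 115 with NDRG1-eGFP, 54.2 to 140 with PLP-GFP and 64.1 to 92.5 with PDGFRa-GFP, the 3 mural markers to 0.646 to 7.42 with NDRG1-eGFP, 2.55 to 16.5 with PLP-GFP and 3.10 to 4.92 with PDGFRa-GFP, and the progenitor markers to 1869 to 1989 with NDRG1-eGFP, 1407 to 1585 with PLP-GFP and 1736 to 1986 with PDGFRa-GFP. Tubb3, at mean log2 values of 12.38 in NDRG1-eGFP, 12.11 in PLP-GFP and 12.01 in PDGFRa-GFP cells, made up most of the neuronal sums. Olig1 made up nearly all of the progenitor sums. Of the other progenitor markers, Pdgfra, Cspg4, Vcan and Sox6 had their highest mean in PDGFRa-GFP cells. Matn4 and Ptprz1 had theirs in PLP-GFP cells and Lhfpl3 in NDRG1-eGFP cells.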

Additional observations from a re-analysis of the deposited data

How the results depend on the processing

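Depth is unknown, and overlapping or duplicated sequence touches 12 members by over 5% of exon bases and 2 by over 5% of windows. Replicate numbers are shared between groups but did not pair libraries (same-number correlations from -0.234 to 0.094).

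In NDRG1-eGFP against PLP-GFP, 14 higher and 12 lower members became 11 and 13 after recentring. The higher ones numbered 7 with the length trend removed and the replicate block, and 7 to 17 without 1 library (9 without NDRG1-eGFP replicate 1, 7 without PLP-GFP replicate 3). The lower ones numbered 9 to 14.

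In PLP-GFP against PDGFRa-GFP, 5 higher members became 2 with the replicate block, 1 with the length trend removed, 1 with both, and 1 to 6 without 1 library. The 3 lower ones became 1 with 100 added to the linear values, 1 among genes with a mean of at least 8, 0 with the replicate block with or without the length trend, and 0 to 5 without 1 library.

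In NDRG1-eGFP against PDGFRa-GFP, 8 higher members became 4 after recentring, 3 with the replicate block, 2 in a fit of those groups alone, 5 with the length trend removed and 2 with both that and the block. Without 1 library they numbered 3 to 12 (4 without NDRG1-eGFP replicate 1, 5 without NDRG1-eGFP replicate 3 or PLP-GFP replicate 2 or 3, 3 without PDGFRa-GFP replicate 1 or 2). The 4 lower ones became 1 with the block, 1 in a fit of those groups alone, 2 with the length trend removed with or without the block, and 1 to 7 without 1 library (2 without NDRG1-eGFP replicate 2, PLP-GFP replicate 3 or PDGFRa-GFP replicate 1, 1 without NDRG1-eGFP replicate 3, 7 without PDGFRa-GFP replicate 3).

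With the length trend removed, Gpr107 turned to 0.39 and Gpr37 to 0.03 (also 0.03 with the block) in NDRG1-eGFP against PLP-GFP. The causes were not tested. Among the other values of named members outside the leave-one-out fits, 931 stayed on their side of the threshold, 65 lost a call and 6 gained one. Of the 931, 31 called in neither fit changed sign, 13 of them with the length trend removed, 14 with that and the block, and 4 after recentring (such as Adora1 in NDRG1-eGFP against PLP-GFP, -0.10 as deposited and 0.28 with the length trend removed). Counts of the pathway lists outside the leave-one-out fits stayed similar in 383 cases, fell in 90 and rose in 13. In the leave-one-out fits these numbered 369, 88 and 29. Single pathway genes were not followed through the leave-one-out fits.

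Over all genes, the replicate block gave 338 higher and 384 lower in PLP-GFP against PDGFRa-GFP (957 and 965 as deposited) and 457 and 864 in NDRG1-eGFP against PDGFRa-GFP (1207 and 1176), fits of the compared groups alone gave 552 and 514, and 318 and 724, and the length trend's removal gave 331 and 552, and 495 and 1124. It gave 1576 and 1846 in NDRG1-eGFP against PLP-GFP (2953 and 2507). With it the block gave 1204 and 1564 in that comparison, 120 and 256 in PLP-GFP against PDGFRa-GFP, and for NDRG1-eGFP against PDGFRa-GFP 207 and 884. Leaving out PLP-GFP replicate 2 gave 92 and 186 in PLP-GFP against PDGFRa-GFP, and leaving out PDGFRa-GFP replicate 3 gave 2804 and 1817 in NDRG1-eGFP against PDGFRa-GFP. Without 1 library, NDRG1-eGFP against PLP-GFP gave 2114 to 3783 higher and 1847 to 3125 lower genes. PLP-GFP against PDGFRa-GFP gave 92 to 1449 and 186 to 1340.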
